A study of Mus musculus with 12 samples.

Results

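Messenger RNA was compared between control and tolerogenic dendritic cells after both had met lipopolysaccharide (LPS), a cell wall component of bacteria that is sensed through Toll-like receptor 4. All cells were grown from the bone marrow of wild-type (WT) C57BL6 mice, and the RNA came from live CD11c+ dendritic cells enriched on day 7. The group labelled BMDC + LPS holds 3 libraries of control bone marrow-derived dendritic cells with LPS. The group labelled TolDC + LPS holds 3 libraries of cells that had been generated with vitamin D3 (VitD3) and interleukin 10 (IL-10) and were then studied with LPS. Both groups therefore share the strain, the genotype, the day, the enrichment and LPS, and differ in vitamin D3 and IL-10. These are 6 of the 12 libraries of a study of tolerogenic dendritic cells in acute kidney injury, and the other 6 are BMDC and TolDC without LPS, 3 of each. The comparison covers every gene that passed a filter on low counts, 13141 of the 31054 gene identifiers counted, and no measured difference was used to choose them. Because the 2 agents were given together, the part of each in a difference cannot be told apart. No source used here gives the doses, the length of the LPS exposure or the age of the mice.

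Dendritic cells carry antigen to T cells, and LPS normally makes them mature, which means that they release cytokines and display the co-stimulatory proteins that T cells need for activation. The active form of vitamin D3 binds the vitamin D receptor, a nuclear receptor that pairs with a retinoid X receptor on DNA and switches on, among others, the enzyme that degrades vitamin D. IL-10 acts through its receptor chains, the kinases JAK1 and TYK2 and the transcription factor STAT3, and restrains inflammatory cytokine genes in myeloid cells. Dendritic cells grown with such agents are called tolerogenic because they dampen T cell responses.

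Levels below are in CPM, counts scaled to the same library total, and values of libraries are always listed in the order of the library numbers 1, 2 and 3. In the results with LPS, BMDC and TolDC stand for the 2 groups with LPS. A log2 difference is TolDC minus BMDC, given ± its standard error (SE), and a gene was called higher or lower at an adjusted p below 0.05. The labels do not say whether the 3 libraries of a group came from separate cultures or mice, so the p-values describe the spread among these libraries, which may be only technical. The 6 libraries held 21844405 to 41764975 reads assigned to genes. A gene without counts in all 3 libraries was below 0.0415 CPM in BMDC and 0.0298 CPM in TolDC, taking 3 counts over the group as the limit, which covers counting error only. In a principal component analysis of the 6 libraries, the leading component held 85.5% of the variance and parted TolDC from BMDC. The next, with 7.52%, parted the libraries numbered 1 from those numbered 2 and 3 in both groups. Transcripts of granulocytes were lower in the libraries numbered 1: S100a9, a neutrophil protein, was at 105, 548 and 495 CPM in BMDC and 45.3, 147 and 122 CPM in TolDC.

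With LPS, TolDC and BMDC differed in 8929 of the 13141 genes, or 67.9%. Of all genes tested, 4507 (34.3%) were higher in TolDC and 4422 (33.7%) were lower. A change of at least 2-fold was reached by 900 higher genes (6.85%) and 1248 lower genes (9.5%), and a change of at least 4-fold by 315 (2.4%) and 454 (3.45%). The median log2 difference over all genes was 0.02. In 4798 genes (36.5%) every TolDC library lay above every BMDC library, and in 4590 (34.9%) every TolDC library lay below. At the 2-fold mark, 799 of the higher and 1129 of the lower genes were protein coding, and 56 and 81 were long intergenic non-coding RNAs. In bulk samples such as these, fewer cells of a type and less RNA per cell cannot be told apart. The shares above are the background against which the gene groups below are read. A list split near these shares shows nothing particular to its members.

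**Figure D1:**
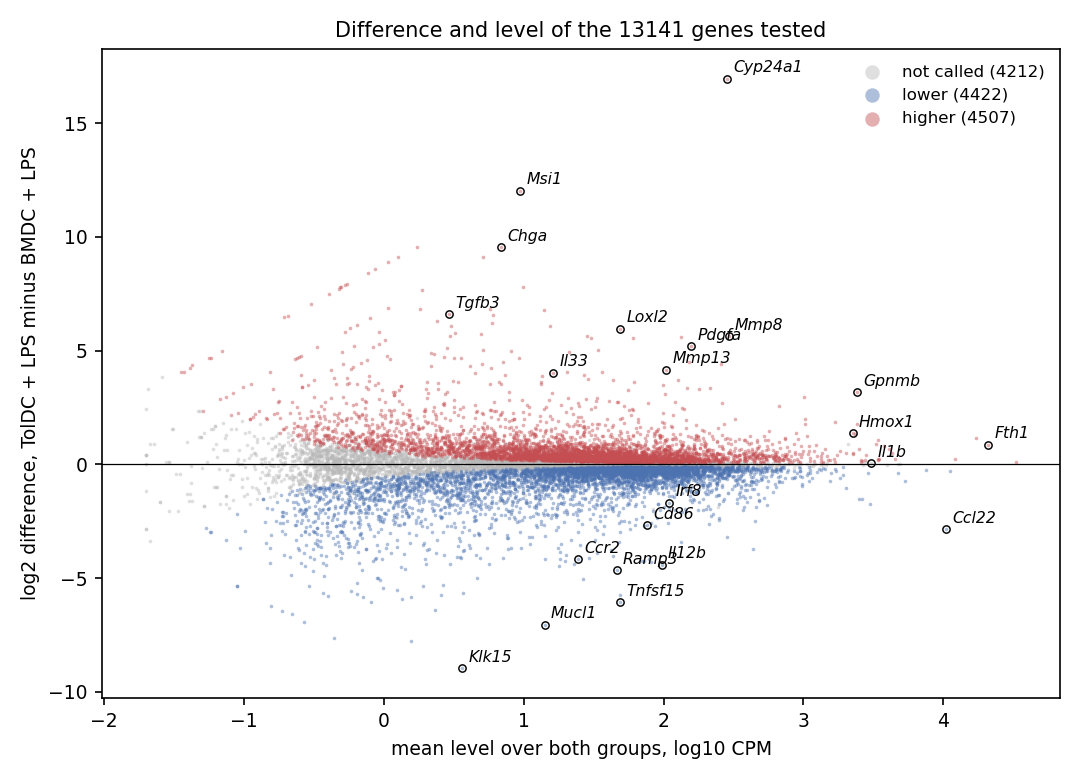
Log2 difference between TolDC + LPS and BMDC + LPS (vertical) against the mean level over both groups in log10 CPM (horizontal) for the 13141 genes tested, with called genes coloured. The 4507 higher genes and 4422 lower genes spread over the whole range of levels, and the fitted values of Cyp24a1, Msi1, Chga and Klk15, which rest on at most 3 counts in one group, are not bounds.

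The largest rise was that of Cyp24a1, the enzyme that degrades vitamin D and a classical target of its receptor (ENSMUSG00000038567, chromosome 2, 170482708 to 170497145, minus strand of GRCm38). It was at 626, 533 and 559 CPM in TolDC and had no counts in any BMDC library. Taking 3 counts over the BMDC group as the limit, it was at least 13791-fold higher in TolDC. The receptor gene itself, Vdr, was at 305, 265 and 275 CPM in BMDC and 284, 238 and 248 CPM in TolDC. Its groups overlapped and it was not called (log2 difference −0.13 ± 0.069, adjusted p = 0.103). With the library number as a block, Vdr was called lower (−0.13, adjusted p = 3.17e-04), and so it was without TolDC + LPS library 1 (−0.21, adjusted p = 0.00683). Rxra, a partner of the receptor, was lower (−0.67 ± 0.062), and Rxrb, another partner, was higher (0.26 ± 0.047). Cyp27b1, which makes the active hormone, did not pass the filter and stayed between 0.0352 and 0.273 CPM in the 6 libraries. Of 17 genes tested in a list of the receptor, its enzymes and known targets, 5 were higher, 7 lower and 5 not called, with a median log2 difference of −0.13 against 0.02 over all genes. Among the known targets, Ninj1, a cell surface adhesion protein, was at 137, 143 and 151 CPM in BMDC and 317, 302 and 311 CPM in TolDC, so that all TolDC libraries were above all BMDC libraries. Trem1, an activating receptor of myeloid cells, was higher by a smaller margin (log2 difference 0.46 ± 0.11), and Fbp1, an enzyme of glucose synthesis, was lower (−1.48 ± 0.088). Cd14, the LPS co-receptor and another known target, differed by only −0.11 ± 0.045 (adjusted p = 0.040), a call that was lost in 5 of the alternative settings, among them the fits without BMDC + LPS library 2 (adjusted p = 0.116) or 3 (0.0789) and without TolDC + LPS library 1 (0.127) or 3 (0.0764).

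Genes of the IL-10 pathway moved in both directions. Of 19 tested, 8 were higher (42.1%), 6 lower (31.6%) and 5 not called, with a median log2 difference of 0.04. This split is near that over all genes, 34.3% and 33.7%. Il10 was low in every library, at 0.528, 1.11 and 0.764 CPM in BMDC and 0.294, 0.504 and 0.619 CPM in TolDC, and was not called (log2 difference −0.69 ± 0.37, adjusted p = 0.106). With the library number as a block it was called lower (−0.73, adjusted p = 0.0475), as it was without BMDC + LPS library 1 (−0.94, adjusted p = 0.0384). Il10ra, the ligand-binding receptor chain, was at 252, 239 and 241 CPM in BMDC and slightly lower at 225, 214 and 219 CPM in TolDC. The kinase Tyk2 was lower (log2 difference −0.59 ± 0.039) and Stat3 was higher (0.24 ± 0.037). Hmox1, haem oxygenase 1, which breaks down haem and is known as an effector of IL-10 in macrophages, was at 1270.2, 1254 and 1259 CPM in BMDC and 3525, 3004 and 3171 CPM in TolDC. The Hmox1 groups did not overlap and the difference was 2.57-fold. Il21r, the IL-21 receptor, was higher as well (1.23 ± 0.044), as was Il4ra, the IL-4 receptor chain (0.46 ± 0.041).

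Inflammatory cytokines were lower in TolDC for some members and almost the same for others. Of 26 tested, 15 were lower, 6 higher and 5 not called, and the median log2 difference was −0.42. The widest gaps within the IL-12 family were in Il12b, the p40 chain that both IL-12 and IL-23 contain (on chromosome 11, 44400063 to 44414033, plus strand). It was at 205, 169 and 182 CPM in BMDC and 8.94, 8.64 and 8.6 CPM in TolDC. No library of one group came near the other, and the fitted fall was 21.3-fold (log2 difference −4.41 ± 0.068, adjusted p = 3.15e-19). Il23a, the p19 subunit of IL-23, was at 105, 87.7 and 96 CPM in BMDC and 17.4, 16.3 and 16.5 CPM in TolDC. Il12a, the p35 subunit of IL-12, was at 43.4, 49.2 and 46.7 and 28, 35.6 and 35.4 CPM in the same groups. Thus the p40 and p19 transcripts were many times lower, whereas Il12a was lower by only 1.4-fold. The partner chain Ebi3 was lower (log2 difference −1.28 ± 0.035), as was Il27 (−0.51 ± 0.16).

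Il6 and Tnf, the best known cytokines of LPS-exposed cells, differed less. Il6 was at 473, 450.4 and 465 CPM in BMDC and 268, 292 and 281 CPM in TolDC, a fall of 1.65-fold (adjusted p = 2.20e-04). Tnf was at 273, 308 and 302 and 213, 258 and 246 CPM, a fall of 1.23-fold (adjusted p = 0.00134). Il1b, the precursor of IL-1 beta, was at 2941, 3024 and 3079 CPM in BMDC and 2979, 3201 and 3111 CPM in TolDC. The Il1b groups overlapped and the gene was not called (log2 difference 0.04 ± 0.040, adjusted p = 0.402). Other members were lower in TolDC. Tnfsf15, which co-stimulates T cells through death receptor 3, was at 112, 85.8 and 93.3 CPM in BMDC and 1.63, 1.28 and 1.49 CPM in TolDC (log2 difference −6.04 ± 0.13). Lta, lymphotoxin alpha, was at 17.2, 14.7 and 15.5 CPM against 2.77, 2.56 and 3.02 CPM. Il15, a survival cytokine of T and NK cells, was lower (log2 difference −1.71 ± 0.085), as were Il18 (−1.42 ± 0.27) and Csf2, which encodes GM-CSF (−1.51 ± 0.42).

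In the opposite direction, Il33, an alarmin of the IL-1 family, was at 2.39, 1.66 and 1.39 CPM in BMDC and 32.2, 28.3 and 31.2 CPM in TolDC (log2 difference 4.04 ± 0.13, adjusted p = 9.81e-15), and no TolDC library came near a BMDC library. Oncostatin M (Osm, 0.88 ± 0.052), Csf3 (G-CSF, 0.69 ± 0.10) and Csf1 (M-CSF, 0.44 ± 0.045) were higher too. Tnfsf13b (BAFF), a survival factor of B cells, was at 1.44, 1.98 and 2.65 CPM in BMDC and 26.6, 22.5 and 25 CPM in TolDC. Tnfsf14 (LIGHT) was at 1.34, 2.03 and 1.39 and 15, 13.9 and 13.7 CPM. In the list of the TNF superfamily and its receptors, 10 of 25 members were higher (40%), 11 lower (44%) and 4 not called. Over all genes the shares were 34.3% and 33.7%, so the superfamily as a whole had no common direction (median log2 difference −0.21).

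**Figure D2:**
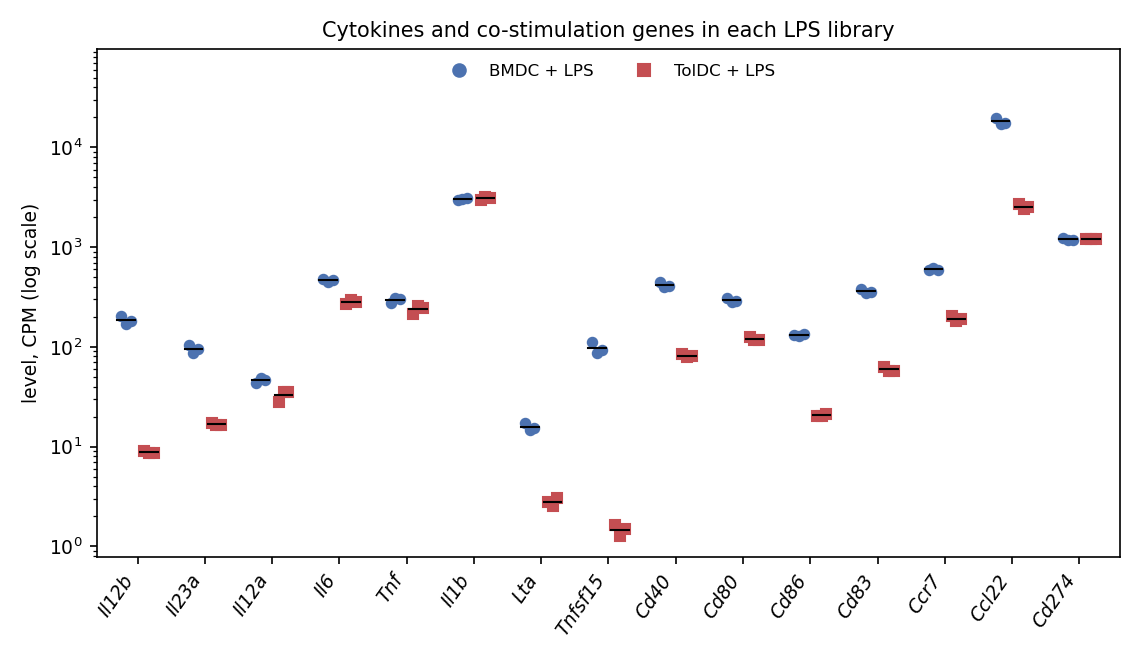
Level in CPM on a log scale (vertical) of 15 cytokine and co-stimulation genes (horizontal) in each library of BMDC + LPS (circles) and TolDC + LPS (squares), with bars at the group means. Il12b, Il23a, Lta, Tnfsf15, Cd40, Cd86, Cd83 and Ccl22 are separated widely, while Il1b and Cd274 overlap.

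Chemokines moved both ways. Of 10 CXC and CX3C ligands tested, 5 were higher, 4 lower and 1 not called. The neutrophil attractants Cxcl2, at 311, 314 and 312 CPM in BMDC and 609.8, 613 and 611 CPM in TolDC, and Cxcl3, at 475, 451 and 458 and 1641, 1541 and 1620.3 CPM, were higher in TolDC. Cxcl10, an attractant of T cells that is induced by interferon, was lower, at 19.6, 35.7 and 32.7 CPM in BMDC and 7.21, 9.42 and 9.46 CPM in TolDC. Cx3cl1 (fractalkine) was at 38.2, 39.1 and 35.9 CPM against 2.02, 2.59 and 2.55 CPM. For each of these 4 genes the groups were fully apart. Among 13 CC ligands, 5 were higher, 5 lower (38.5% each, against 34.3% and 33.7% of all genes) and 3 not called. Ccl22, which draws CCR4-bearing T cells and regulatory T cells, was the most abundant of the 5 lower ones, at 19849, 17342 and 17608 CPM in BMDC and 2719, 2419 and 2513 CPM in TolDC (log2 difference −2.84 ± 0.054). Ccl17, which uses the same receptor, was lower (log2 difference −1.76 ± 0.078), as were Ccl24 (−1.61 ± 0.049) and Ccl5 (−1.52 ± 0.12). The monocyte attractants Ccl7 (2.05 ± 0.050) and Ccl2 (1.3 ± 0.055) were higher. Of 12 chemokine receptors, 3 were higher (5 with the library number as a block), 4 lower and 5 not called. Ccr2, which guides monocytes into inflamed tissue, was at 47.8, 45.4 and 46.3 CPM in BMDC and 1.86, 3.16 and 2.65 CPM in TolDC. Ccr7, which takes mature dendritic cells to lymph nodes, was at 596, 611 and 592 CPM in BMDC and 202, 182 and 192 CPM in TolDC. Cxcr2, a chemokine receptor of neutrophils, was at 32.5, 31.3 and 32.1 and 4.7, 9.62 and 9.49 CPM. In TolDC it was lowest in library 1, as the granulocyte transcripts were, and their part in the difference was not tested.

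Co-stimulation and maturation genes had the lowest median of the 37 function lists, −1.03. Of 20 tested, 15 were lower in TolDC, 4 higher and 1 not called. Cd86, a ligand of CD28 on T cells (ENSMUSG00000022901, chromosome 16, 36603869 to 36666081, minus strand), was at 131, 129.5 and 136 CPM in BMDC and 20.2, 20.3 and 21 CPM in TolDC (log2 difference −2.69 ± 0.044, adjusted p = 3.98e-19). Its counterpart Cd80 was at 311, 281 and 285 and 125, 118 and 117 CPM (log2 difference −1.28 ± 0.044). Cd40, which receives the CD40 ligand signal of helper T cells (ENSMUSG00000017652, chromosome 2, 165055627 to 165072948, plus strand), was at 445, 394 and 407 CPM in BMDC and 85.6, 78.4 and 80.3 CPM in TolDC. Each of the 3 genes had all TolDC libraries below all BMDC libraries. The maturation marker Cd83 was at 381, 347 and 358 CPM against 63.2, 57.6 and 57.2 CPM, and Fscn1 (fascin), which bundles actin in the dendrites of mature cells, was lower (log2 difference −2.0 ± 0.092). Cd70, the ligand of CD27, was lower (log2 difference −3.65 ± 0.32) from a level of only 2.31 ± 0.53 CPM in BMDC (mean ± SD, n = 3). The 4 higher members were Tnfsf14, Slamf6, Cd200 and Adam8.

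Inhibitory ligands and regulatory molecules did not move together. Of 23 tested, 10 were higher, 10 lower (43.5% each, against 34.3% and 33.7% of all genes) and 3 not called, and the median was 0.01. Cd274 (PD-L1), the ligand of the T cell checkpoint PD-1, was at 1236, 1185 and 1188 CPM in BMDC and 1211, 1204 and 1209.8 CPM in TolDC and was not called (log2 difference 0.01 ± 0.034, adjusted p = 0.884). Pdcd1lg2 (PD-L2) was lower (−0.83 ± 0.063). Btla, an inhibitory receptor that binds the herpesvirus entry mediator, was at 9.29, 7.93 and 7.73 CPM in BMDC and 63.3, 54.2 and 54.5 CPM in TolDC. Havcr2 (TIM-3) was at 13.7, 10.9 and 13.3 and 35.5, 34.5 and 35.8 CPM, and Vsir (VISTA) was higher (log2 difference 1.35 ± 0.18). Thus Btla, Havcr2 and Vsir were higher while the ligands of PD-1 were not. Aldh1a2, the enzyme through which dendritic cells make retinoic acid, was lower, at 145, 137 and 135 CPM in BMDC and 23.7, 23.3 and 23 CPM in TolDC. Anxa1, annexin A1, was lower (log2 difference −1.5 ± 0.043), as was Lgals1, galectin 1 (−1.67 ± 0.041).

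MHC class II genes, which encode the molecules that show antigen to CD4+ T cells, were mostly higher. Of 14 genes of class II presentation, 10 were higher and 4 lower, with a median log2 difference of 0.71. H2-Ab1, a chain of the I-A molecule, was at 494, 495 and 500.1 CPM in BMDC and 1406, 1174 and 1259 CPM in TolDC. H2-Aa, its partner, was at 649, 615 and 625 and 1637, 1364 and 1442 CPM. Both genes were between 2-fold and 3-fold higher, with no overlap. Ciita, the transactivator that switches class II genes on, was at 44, 45.5 and 44.3 CPM in BMDC and 44.6, 36.3 and 37.8 CPM in TolDC. Its groups overlapped, and the small fall (log2 difference −0.17 ± 0.066, adjusted p = 0.027) lost its call without BMDC + LPS library 2 (adjusted p = 0.0774) or 3 (0.0525) and without TolDC + LPS library 2 (0.137) or 3 (0.114). Cd74, the invariant chain, was lower (log2 difference −0.25 ± 0.061), and March1, a ligase that removes class II molecules from the surface, was higher (log2 difference 1.08 ± 0.043). Class I presentation showed small differences, with 6 of 22 higher, 9 lower and 7 not called and a median of −0.01. Its lower members included the immunoproteasome subunit Psmb9 (−0.41 ± 0.057), the activator subunits Psme1 (−0.44 ± 0.040) and Psme2 (−0.45 ± 0.051) and the class I transactivator Nlrc5 (−0.90 ± 0.046). The class I gene H2-Q6 was higher (0.62 ± 0.054), a value that is uncertain because near-identical neighbours share its reads.

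Several transcription factors of dendritic cell identity were lower. Zbtb46, which marks classical dendritic cells, was at 69.2, 60.4 and 62.8 CPM in BMDC and 18, 14.7 and 16.6 CPM in TolDC. Irf8, which is needed for type 1 dendritic cells and for IL-12 production, was at 174, 166 and 162 and 54.7, 52 and 49.7 CPM. Both were lower by more than 3-fold, with no overlap. Batf3, a partner of Irf8, was lower (log2 difference −1.38 ± 0.041), as were Klf4 (−2.23 ± 0.076) and Nr4a3, a nuclear receptor linked to dendritic cell migration (−2.69 ± 0.072). Irf4, in contrast, was at 495, 430.3 and 431 CPM in BMDC and 431, 366 and 382 CPM in TolDC, with overlap. Its call (adjusted p = 0.016) was lost without BMDC + LPS library 1 (adjusted p = 0.0746) and without TolDC + LPS library 2 (0.0694) or 3 (0.0561). Over the 33 myeloid transcription factors tested, 11 were higher (7 without TolDC + LPS library 3), 17 lower and 5 not called. The higher ones included Cebpb (1.05 ± 0.16), Maf (1.11 ± 0.21) and Runx3 (1.16 ± 0.054).

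Interferon-stimulated genes, the antiviral programme that LPS starts through interferon beta, were lower in TolDC in 35 of 41 cases, higher in 2 and not called in 4. Their median log2 difference was −0.65. Ifnb1 itself was at 0.268 ± 0.0873 CPM in BMDC and 0.341 ± 0.121 CPM in TolDC (mean ± SD, n = 3) and was not called. Ifit2, which binds viral RNA, was at 70.6, 92.7 and 91.6 CPM in BMDC and 10.8, 17.8 and 16.2 CPM in TolDC. Oasl1, of the oligoadenylate synthetase family, was at 387, 354 and 369 and 89, 76.5 and 77.7 CPM. In both genes the highest TolDC library stayed below the lowest BMDC library. Iigp1, an interferon-induced GTPase, was lower (log2 difference −1.97 ± 0.091), as were Ifi44 (−1.96 ± 0.18) and Ifit3, whose reads may be shared with a near-identical copy (−1.81 ± 0.32). The higher members included Ifitm3, a membrane protein that blocks virus entry (1.07 ± 0.064). In 5 of the alternative settings 1 member, not 2, was higher.

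The promoters of these genes are shown because the interferon genes carry a common element. RefSeq promoter sequences of GRCm38.p6, from 250 bases before to 50 bases after the start of transcription, were found for 32 of the 41 interferon-stimulated genes. The element searched was GAAANNGAA on either strand, the core of the interferon-stimulated response element that binds interferon regulatory factors such as IRF3, IRF7 and IRF9. It was present in 22 of 39 promoters of the interferon-stimulated genes (56.4%), against 7.67% of the 13017 promoters of all genes tested. Of the genes of this list with a promoter, 20 of the 30 lower ones held it, as did the 1 higher one, Ifitm3, and the 1 not called did not. The list was made of genes that interferon induces and nearly all were lower, so these counts do not bear on TolDC against BMDC. Below are 120 bases upstream of Isg15 (chr4:156200827-156200946 on the minus strand), Ifit1 (chr19:34640737-34640856 on the plus strand) and Oas3 (chr5:120777668-120777787 on the minus strand), 5′ to 3′ along the strand of the gene, with each match in capitals. These 3 genes were chosen for their adjoining matches after their values were seen.
Isg15: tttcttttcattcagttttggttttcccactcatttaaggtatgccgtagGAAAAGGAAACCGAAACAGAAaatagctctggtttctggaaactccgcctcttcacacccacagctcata
Ifit1: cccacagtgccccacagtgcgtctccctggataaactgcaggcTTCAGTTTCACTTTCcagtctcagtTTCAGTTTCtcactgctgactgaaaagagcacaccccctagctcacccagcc
Oas3: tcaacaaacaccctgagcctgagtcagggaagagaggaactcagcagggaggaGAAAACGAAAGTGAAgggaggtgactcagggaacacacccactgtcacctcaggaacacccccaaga
In Isg15 and Oas3 the matches overlap in a single run, and in Ifit1 they lie on the opposite strand, in a pair and a separate copy. Isg15 was at 241 ± 11.3 CPM in BMDC and 131 ± 2.22 CPM in TolDC (mean ± SD, n = 3), Ifit1 at 115 ± 12.8 and 56.3 ± 7.01 CPM, and Oas3 at 241 ± 21 and 82.9 ± 12.8 CPM. Their log2 differences were −0.88 ± 0.051, −1.03 ± 0.095 and −1.54 ± 0.12. Over all genes, those lower by at least 2-fold held the element in 10.1% of 1170 promoters and those higher by at least 2-fold in 6.3% of 905. The lower set includes members of the interferon list, of which 12 were lower by at least 2-fold.

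Other elements were searched on both strands in the same way. GGNNTTTCC, an NF-kB site, was present in 33.3% of 21 promoters of the inflammatory cytokine list, in 6.27% of all promoters, in 5.64% of those of genes at least 2-fold higher and in 7.61% of those at least 2-fold lower. It stands in the promoter of Il6 (chr5:30012994-30013113 on the plus strand), shown with the match in capitals because Il6 differed by only 1.65-fold.
Il6: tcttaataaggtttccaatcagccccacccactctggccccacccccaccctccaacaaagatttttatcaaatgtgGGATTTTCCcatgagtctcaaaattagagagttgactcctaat
GNTCA repeated after 4 further bases, a spacing bound by the vitamin D receptor, was rare: it was in 0.492% of all promoters, 0.663% of those of the higher genes and 0.427% of those of the lower genes. TTCNNNGAA, a STAT site, was in 7.05%, 6.74% and 7.09% of the same sets. A match describes the letters in these windows and not binding.

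Genes of NF-kB and its regulators, which relay the LPS signal, were lower in 16 of 22 cases, higher in 3 and not called in 3, with a median of −0.41. Rel, an NF-kB subunit, was at 317, 274 and 287 CPM in BMDC and 135, 125 and 126 CPM in TolDC, without overlap. Nfkbid was lower (log2 difference −1.11 ± 0.043), as were Nfkbie (−0.86 ± 0.050) and Nfkbiz, a nuclear cofactor of NF-kB (−0.82 ± 0.053). Rela (0.06 ± 0.033) and Nfkbia (0.02 ± 0.033) were not called. In sensing, Tlr4 was at 61.2, 61.6 and 58.3 CPM in BMDC and 47.7, 55.7 and 52 CPM in TolDC (log2 difference −0.22 ± 0.051, adjusted p = 7.82e-04), and its partner Ly96 (MD-2) was lower (log2 difference −0.57 ± 0.082). Of 26 Toll-like receptor and LPS sensing genes, 8 were higher, 11 lower and 7 not called. Tlr11, a receptor for a protozoan and bacterial protein, was at 4.96, 4.56 and 4.23 CPM in BMDC and 0.0326, 0.0336 and 0.0743 CPM in TolDC. Tlr9, which senses bacterial DNA, was lower (log2 difference −1.69 ± 0.10), and Tlr13, which senses bacterial ribosomal RNA, was higher (log2 difference 1.12 ± 0.089). Among 18 inflammasome and NOD-like genes, 5 were higher, 9 lower and 4 not called. Naip2, an inflammasome sensor, was higher (log2 difference 1.6 ± 0.049) and Nlrp10 lower (log2 difference −2.42 ± 0.11); Naip2 has near-identical neighbours that share reads.

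Growth factors of tissue repair had the highest median of the function lists, 0.92. Of 18 tested, 11 were higher, 4 lower and 3 not called. Pdgfa, a platelet-derived growth factor chain that acts on fibroblasts and other mesenchymal cells (ENSMUSG00000025856, chromosome 5, 138976014 to 138997370, minus strand), was at 9.08, 7.51 and 8.58 CPM in BMDC and 342, 281 and 297 CPM in TolDC (log2 difference 5.18 ± 0.19, adjusted p = 1.38e-08). Pdgfb, the other classical chain, was at 2.29, 2.9 and 2.16 and 17.7, 16.5 and 17.2 CPM. Tgfb3 was almost silent in BMDC, at 0.0704, 0.0461 and 0.0449 CPM, and at 5.84, 5.78 and 5.87 CPM in TolDC. In each of the 3 genes the lowest TolDC library was several-fold above the highest BMDC library. Hbegf, a ligand of the EGF receptor, was at 63.9, 56.2 and 57.8 CPM in BMDC and 244, 215 and 228 CPM in TolDC. Gdf15, a stress-induced cytokine, was at 42.6, 42.4 and 41.5 and 218, 173 and 187 CPM, and Vegfa, which makes blood vessels grow, at 178, 175 and 171 and 416, 354 and 363 CPM. All were higher in every TolDC library. The 4 lower members were Vegfb, Tgfb2, Inhba and Nrg1.

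**Figure D3:**
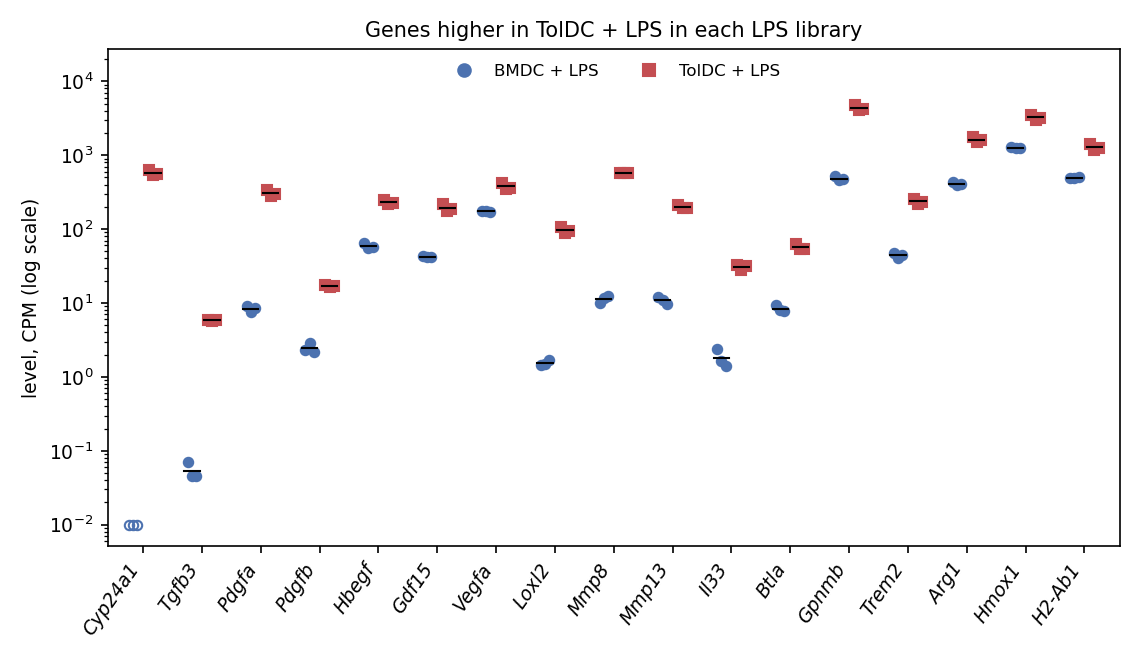
Level in CPM on a log scale (vertical) of 17 genes that were higher in TolDC + LPS (horizontal) in each library of BMDC + LPS (circles) and TolDC + LPS (squares), with bars at the group means. Open circles at the foot of the scale stand for the 3 BMDC libraries with no Cyp24a1 count, and no gene shown has overlapping groups.

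Matrix genes moved strongly both ways. Of 26 matrix proteins and proteases tested, 13 were higher, 9 lower and 4 not called, with a median of 0.38. Loxl2, which cross-links collagen, was at 1.44, 1.47 and 1.71 CPM in BMDC and 105, 88.8 and 94.9 CPM in TolDC (log2 difference 5.97 ± 0.10). The collagenases Mmp8, at 9.99, 11.8 and 12.5 and 568, 573 and 578 CPM, and Mmp13, at 12, 11.1 and 9.75 and 210.3, 191 and 192 CPM, were higher as well. Mmp8 is also a granule protein of neutrophils, and the part of such cells in its difference was not tested. On the other side, Vcan (versican) was at 70.7, 57.2 and 60.8 CPM in BMDC and 4.15, 4.04 and 4.61 CPM in TolDC. The plasminogen activators Plau (−1.44 ± 0.047) and Plat (−2.82 ± 0.40) were lower too. Timp1, an inhibitor of matrix proteases, was lower (log2 difference −1.55 ± 0.085). Of 26 integrin and adhesion genes, 8 were higher, 17 lower and 1 not called. Itga4 was at 62.2, 60 and 57.5 CPM in BMDC and 9.24, 11.6 and 11.3 CPM in TolDC, and Itgb7, which pairs with it, at 12.3, 24.7 and 19.9 and 101, 99.9 and 101 CPM, so the 2 chains of 1 integrin differed in opposite directions.

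Among genes of lipid mediators, 10 of 21 were higher, 5 lower and 6 not called. 3 enzymes on the way to prostaglandin E2 were higher. Pla2g4a, which frees arachidonic acid, was at 39.5, 41.6 and 39.5 CPM in BMDC and 126, 119 and 118 CPM in TolDC, Ptgs2 (COX-2) at 652, 560.4 and 562 and 1206, 998 and 1122 CPM, and Ptges, the terminal synthase, at 34.6, 45.2 and 44.4 and 239, 221 and 225 CPM. Of the receptors of that prostaglandin, Ptger2 was higher (1.23 ± 0.091) and Ptger4 lower, at 42, 42.3 and 40.5 CPM in BMDC and 7.25, 8.04 and 7.83 CPM in TolDC. The leukotriene receptors Cysltr1 (−2.43 ± 0.11) and Cysltr2 (2.2 ± 0.11) differed in opposite directions.

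Most lysosome genes and several phagocyte receptors were higher. Gpnmb, a glycoprotein of lipid-laden phagocytes, was at 516, 455 and 474 CPM in BMDC and 4703, 4028 and 4205 CPM in TolDC (log2 difference 3.16 ± 0.067, adjusted p = 6.93e-16). Trem2, a lipid-sensing receptor, was at 47.5, 40.5 and 44.5 and 258, 222 and 233 CPM, and Msr1, a scavenger receptor, at 23.1, 22.3 and 22.9 and 83.2, 78.4 and 82.3 CPM. Every TolDC library exceeded every BMDC library in these 3 genes. The scavenger receptor Marco went the other way, from 38.5, 47 and 44.6 CPM in BMDC to 4.83, 6.12 and 5.6 CPM in TolDC, as did the dead-cell receptors Axl (−1.96 ± 0.058) and Mertk (−1.5 ± 0.087). Of 22 scavenger and uptake receptors, 12 were higher, 9 lower and 1 not called. Lysosome genes were higher in 22 of 32 cases, lower in 4 and not called in 6, with a median of 0.25. Psap, the precursor of the saposins, was at 11303, 10187 and 10283 CPM in BMDC and 25781, 22185 and 22814 CPM in TolDC, and Hexa, a lysosomal hexosaminidase, at 215, 222 and 224 and 481, 469 and 469 CPM. The 4 lower lysosome genes were the cathepsins Ctsc, Ctsk, Ctsl and Ctss. C1qa, C1qb and C1qc, which begin the classical complement pathway, were lower (log2 differences −1.62 ± 0.38, −2.32 ± 0.20 and −1.95 ± 0.30), all from at most 2.06 CPM on average in BMDC, while C3 was higher, at 2327, 2283 and 2298 CPM in BMDC and 4376, 4316 and 4313 CPM in TolDC. C-type lectins were split 8 to 8 with 2 not called of 18, and Fc receptors 3 to 3 with 4 not called of 10 (5 higher with the library number as a block).

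In metabolism, enzymes that use arginine and tryptophan moved both ways, with 5 of 16 higher (31.2%), 7 lower (43.8%) and 4 not called. Over all genes the shares were 34.3% and 33.7%. Arg1, arginase 1, was at 439, 392 and 403 CPM in BMDC and 1750.4, 1529 and 1588 CPM in TolDC. Nos2, which uses the same substrate to make nitric oxide, was at 3596, 3028 and 3083 and 2787, 2343 and 2438 CPM. Arg1 was thus 3.94-fold higher, and Nos2 1.28-fold lower. The kynurenine pathway enzymes Kynu, at 168, 147 and 146 CPM in BMDC and 7.9, 7.53 and 8.1 CPM in TolDC, and Kmo, at 25.9, 26.3 and 28.7 and 1.83, 1.51 and 1.19 CPM, were lower. Ido1, the first enzyme of that pathway, was between 0.844 and 1.59 CPM in the 6 libraries and was not called (adjusted p = 0.67). Acod1, which makes itaconate, was among the abundant transcripts, at 2599, 2511 and 2526 CPM in BMDC and 3042, 2837 and 2874 CPM in TolDC, a rise of only 0.20 ± 0.043 on the log2 scale.

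Cholesterol synthesis genes were lower in 14 of 21 cases, higher in 2 and not called in 5, with a median of −0.38. Idi1, an isomerase of the mevalonate pathway, was at 12.7, 13.4 and 13.7 CPM in BMDC and 3.0, 2.62 and 2.97 CPM in TolDC. Ch25h, which makes 25-hydroxycholesterol, was at 4.01, 3.64 and 3.42 CPM in BMDC and 27.7, 25.8 and 26.8 CPM in TolDC. The cholesterol exporters Abca1 (−1.13 ± 0.089) and Abcg1 (−1.31 ± 0.050) were lower. Nuclear genes of oxidative phosphorylation were higher in 23 of 39 cases, lower in 8 and not called in 8, but by small amounts, with a median of 0.13 and the largest rise in Ndufa5 (0.83 ± 0.065). Their summed level overlapped, at 5594 to 5923 CPM in BMDC and 5586 to 5869 CPM in TolDC. Genes of the TCA cycle and fatty acid oxidation were lower in 15 of 31 cases, higher in 5 and not called in 11, with a median of −0.11. Glycolysis and hypoxia genes were higher in 14 of 30 cases and lower in 9. The muscle form of phosphofructokinase, Pfkm (1.49 ± 0.10), was higher and the platelet form, Pfkp (−1.28 ± 0.071), lower. Hif1a, the hypoxia factor, was higher, at 331, 293 and 292 CPM in BMDC and 788, 688 and 727 CPM in TolDC. Fth1, the ferritin heavy chain, was one of the most abundant transcripts named here, at 15084, 14511 and 14777 CPM in BMDC and 28666, 25652 and 26961 CPM in TolDC.

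Cell cycle genes were lower in 27 of 32 cases, higher in 1 and not called in 4, with a median of −0.74. Ccne1 and Ccne2, the cyclins that open DNA replication, were at 27.8, 26.3 and 27.7 and 24.2, 18.8 and 19.2 CPM in BMDC and at 8.39, 8.14 and 8.03 and 4.73, 4.54 and 4.51 CPM in TolDC. Both pairs were without overlap. Rrm2, which supplies DNA precursors, was at 11.1, 19.3 and 16.8 CPM in BMDC and 4.37, 5.75 and 5.43 CPM in TolDC, and Ccna2, cyclin A2, at 2.6, 6.96 and 7.28 and 1.76, 2.89 and 2.7 CPM. The Ccna2 groups overlapped and its call (adjusted p = 0.0308) was lost in 6 alternatives, among them those without BMDC + LPS library 2 (adjusted p = 0.103) or 3 (0.109) and without TolDC + LPS library 1 (0.0907) or 3 (0.0592). In both genes library 1 was the lowest of its group, as for the granulocyte transcripts, and their part was not tested. ER stress and integrated stress response genes were higher in 17 of 24 cases, lower in 2 and not called in 5, with a median of 0.20. Atf4, the central factor of that response, was at 344, 341 and 346 CPM in BMDC and 528, 507 and 513 CPM in TolDC, and its targets Chac1 (1.63 ± 0.14), Psat1 (0.73 ± 0.045), Trib3 (0.69 ± 0.047) and Asns (0.53 ± 0.041) were higher. Of 23 genes of the BCL2 family and cell death, 14 were lower and 6 higher; Pmaip1 (NOXA), which promotes death, was lower (log2 difference −1.99 ± 0.046), and so was Bcl2l1 (BCL-XL), which prevents it (−1.15 ± 0.049).

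**Figure D4:**
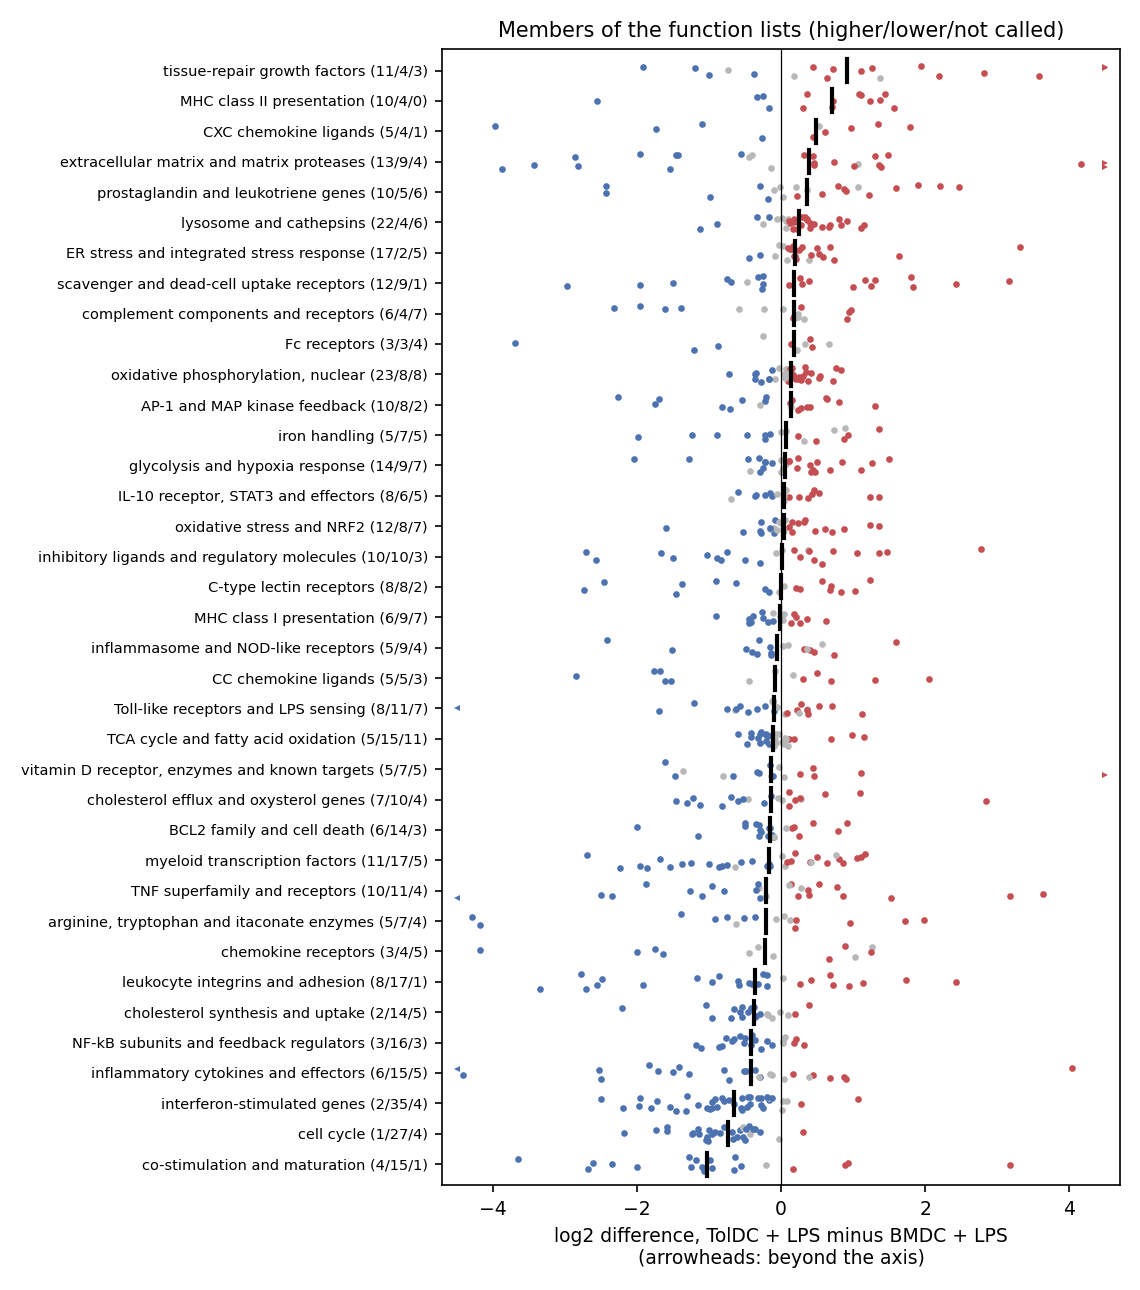
Log2 difference between TolDC + LPS and BMDC + LPS (horizontal) of each tested member of the 37 function lists (vertical, ordered by the median), with higher members in red, lower in blue, others in grey, black bars at the medians and counts of higher, lower and not called members in brackets. Medians run from −1.03 for co-stimulation and maturation to 0.92 for tissue-repair growth factors.

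Several of the largest rises lay outside these lists. Next to Cyp24a1, Msi1, an RNA-binding protein of neural progenitors, had no counts in BMDC and was at 20.7, 16.5 and 19.4 CPM in TolDC, at least 457-fold higher. Chga (chromogranin A), a granule protein of neuroendocrine cells, was at 0, 0 and 0.0449 CPM in BMDC and 13.4, 14.3 and 13.6 CPM in TolDC, a ratio of 994 (95% counting interval 178 to 39273). Iqsec3 was at 11, 9.21 and 10.5 CPM in TolDC, 744-fold above its single count in BMDC (133 to 29426). Without regard to strand, the Iqsec3 log2 difference was 4.98, far below the 9.13 ± 0.34 fitted to the stranded counts. Further rises were those of Cdr2l (7.81 ± 0.21), Robo4, a receptor of vascular cells (6.83 ± 0.27), Pde10a, a phosphodiesterase (6.78 ± 0.16), Ugt1a9 (6.55 ± 0.29), Fam110c (6.23 ± 0.28), Dtx1, a regulator of Notch signals (6.1 ± 0.26), and Sgsm1 (6.1 ± 0.21). Ugt1a9 belongs to a group of transcripts that share exons, so its count is uncertain. The highest BMDC library among these genes was at 0.507 CPM, in Sgsm1.

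The largest falls included a group of kallikreins, secreted serine proteases. Klk15 was at 7.04, 7.19 and 7.46 CPM in BMDC and had a single count in TolDC, a ratio of 727 in favour of BMDC (95% counting interval 130 to 28753). Klk1b26 (−5.66 ± 0.23) and Klk1b8 (−5.3 ± 0.25) were lower too, and their values are uncertain since near-identical kallikrein genes can share reads. Mucl1, a mucin-like secreted protein, was at 31.5, 25.8 and 26.8 CPM in BMDC and 0.0979, 0.269 and 0.248 CPM in TolDC. Amelx (amelogenin), best known from tooth enamel, was at 113, 86.1 and 90.4 and 2.55, 1.68 and 1.36 CPM. Ramp3, which partners receptors for adrenomedullin, was at 92.4, 88.1 and 85.6 CPM against 3.79, 3.19 and 3.62 CPM. The groups were wide apart in each case. Adra2a, an adrenergic receptor (−5.76 ± 0.26), Tcaf2 (−5.03 ± 0.095), Fam89a (−4.99 ± 0.22) and Apol7c, an apolipoprotein L (−4.46 ± 0.19), complete the 12 largest falls with Tnfsf15 and Il12b.

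The differences were next set beside those without LPS, where 1 library stood apart. BMDC library 3 without LPS held Cyp24a1 at 13.1 CPM, against 0 and 0.0324 CPM in libraries 1 and 2, and 1819.9, 1708 and 1743 CPM in TolDC without LPS. Of 13 genes that were above 10 CPM in TolDC without LPS and under 1% of that level in BMDC libraries 1 and 2, 11 were highest in library 3 among the BMDC libraries, a rule chosen after the values were seen. Without that library, the difference with LPS minus that without LPS was −4.40 for Btla (−3.72 with it) and 3.88 for Msi1 (4.48 with it), and the calls of Robo4 (1.34, adjusted p = 0.051), Iglon5 (3.87, adjusted p = 0.0517) and Ugt1a9 (3.94, adjusted p = 0.073) were lost. Over all genes, 2561 differences were more positive with LPS and 2956 more negative without that library, against 2683 and 3151 with it. The 3 BMDC libraries with LPS had no Cyp24a1 count.

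Many differences were common to both states. The comparison without LPS uses the other 6 libraries, so no library is shared. There, 4203 genes (32.0%) were higher in TolDC and 3998 (30.4%) lower. Of the 4507 genes higher with LPS, 2726 were also higher without it, which is 60.5% of the former and 64.9% of the latter. Of the 4422 lower genes, 2637 were lower in both (59.6% and 66.0%). A smaller number changed side: 405 genes were higher with and lower without LPS, and 503 the reverse. Across the 13141 genes, the differences with and without LPS had a Pearson r of 0.75 and a Spearman rho of 0.62, given as a description since genes are not independent replicates and all libraries were scaled together.

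The test of the difference between the 2 differences called 5834 genes (44.4%), of which 2683 (20.4%) were more positive with LPS and 3151 (24.0%) more negative. Among the 5363 genes called in the same direction in both states, 1303 were larger in size with LPS, 840 smaller and 3220 not called. Mmp13 had the largest positive shift among the genes named. It was at 27.8, 29.7 and 29.1 CPM in BMDC and 11.1, 10.9 and 11 CPM in TolDC without LPS, but 12, 11.1 and 9.75 and 210.3, 191 and 192 CPM with LPS (difference between differences 5.56 ± 0.089, adjusted p = 2.16e-18). Irf8 was higher in TolDC without LPS, at 87.6, 81.4 and 83.4 against 51.3, 45.1 and 49.7 CPM, and lower with LPS (−2.47 ± 0.072, adjusted p = 1.88e-14). Igsf9, an adhesion protein of the immunoglobulin family, also changed side, with log2 differences of 1.17 without and −3.42 with LPS. Ptgs2 was at 0.529, 0.551 and 0.818 CPM in BMDC and 42, 37.5 and 38.6 CPM in TolDC without LPS, a difference of 5.98 that shrank to 0.91 with LPS. Aldh1a2 went from −6.97 without LPS to −2.58 with it. Il1b, higher in TolDC without LPS (1.39), was level with LPS (0.04), and Tnf and Nos2 went from 0.83 and 1.48 to −0.30 and −0.36.

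**Figure D5:**
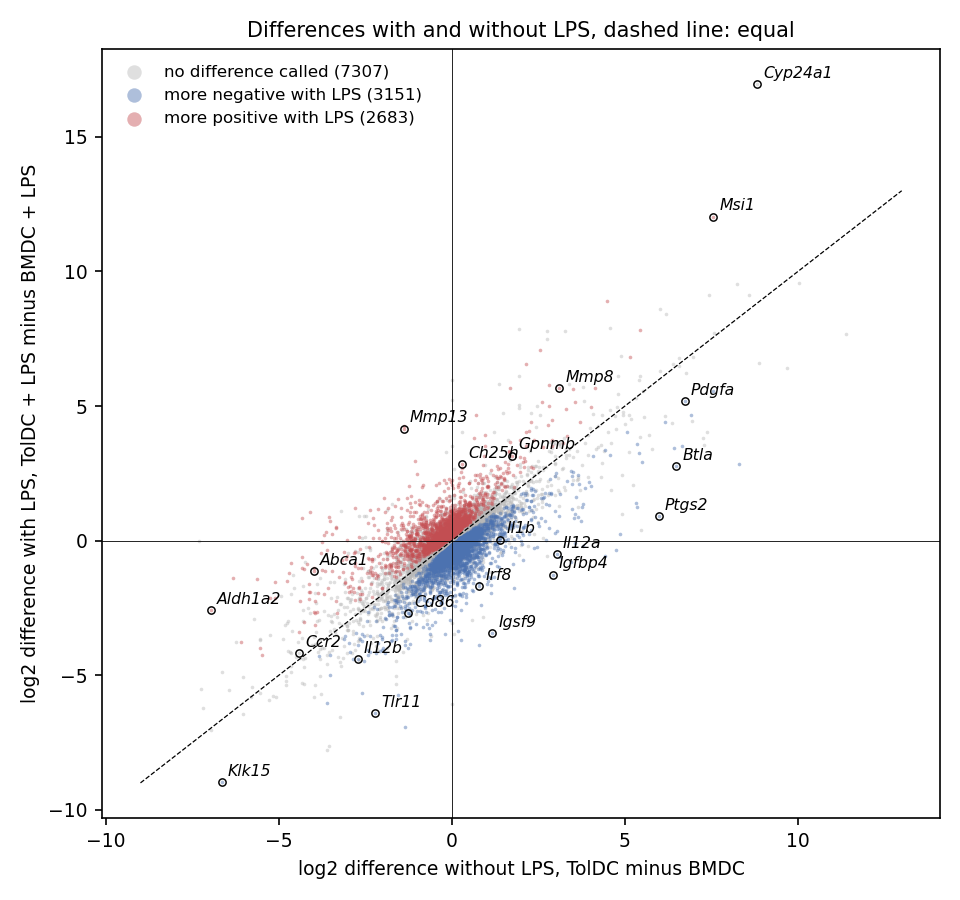
Log2 difference between TolDC and BMDC with LPS (vertical) against that without LPS (horizontal) for 13141 genes, with a dashed line where they are equal. The 3151 genes in blue lie below that line and the 2683 in red above it by the test of the difference, and Mmp13, Irf8 and Igsf9 lie on opposite sides of zero in the 2 states.

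The lists were also counted by the test of the difference with against without LPS. In the cell cycle list, 22 of 32 members were higher in TolDC without LPS and the median was 0.39, against −0.74 with LPS, and 31 of the 32 had a more negative difference by the test. Of the 41 interferon-stimulated genes, 29 had a more negative difference with LPS and 0 a more positive one, with medians of −0.17 without and −0.65 with LPS. In the lysosome list 26 of 32 were more positive and 0 more negative, with medians of −0.04 and 0.25, and in the ER stress list 17 of 24 were more positive and 1 more negative, with medians of −0.20 and 0.20. Nuclear oxidative phosphorylation genes were more positive in 21 of 39 and more negative in 3. For inflammatory cytokines, 12 of 26 were more negative and 0 more positive, and for co-stimulation 11 of 20 were more negative and 5 more positive. These counts compare with 20.4% and 24.0% over all genes. Cholesterol synthesis genes were more positive with LPS in 12 of 21 by the same test and more negative in 2. They were lower in all 21 tested members without LPS and in 14 with LPS, with medians of −0.72 and −0.38. MHC class II genes kept a similar median, 0.67 without and 0.71 with LPS, and for growth factors the medians were 0.70 and 0.92.

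The marker genes of the labelled cell type and of other cells were read in the same 6 libraries. Itgax, which encodes CD11c, was at 1537, 1250.5 and 1285 CPM in BMDC and 1501, 1292 and 1342 CPM in TolDC and was not called (log2 difference 0.02 ± 0.087, adjusted p = 0.835). Of 12 dendritic cell markers, 4 were higher (the class II genes H2-Ab1, H2-Aa and H2-Eb1 and Btla), 7 lower and 1 not called. The lower ones were Flt3, Zbtb46, Cd74, Ciita, Dpp4, Ccr7 and Kmo. Their summed level overlapped over all 12, at 11313 to 12848 CPM in BMDC and 11488 to 13752 CPM in TolDC. Most of each sum was Cd74 (8836, 7625 and 7795 CPM against 7498, 6222 and 6740 CPM), so the sum says little about the other members. Flt3, the receptor that sustains dendritic cells, was at 0.915, 1.75 and 1.48 CPM in BMDC and 0.0653, 0.202 and 0.0495 CPM in TolDC, so it was low in both. Of 11 macrophage markers tested, 4 were higher and 6 lower. Adgre1 (F4/80) was at 222, 327 and 317 CPM in BMDC and 457, 634 and 589 CPM in TolDC, and Csf1r at 141, 195 and 186 CPM and 340, 426 and 402 CPM, whereas Vsig4 had no count in any of the 6 libraries. The summed macrophage markers ranged from 853 to 1003 CPM in BMDC and from 1348 to 1581 CPM in TolDC (exact permutation p = 0.10, the smallest that 3 against 3 allows, and 0.20 after adjustment over 14 marker lists). Thus the genes of neither cell type moved in a single direction.

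Summed markers of neutrophils ranged from 426 to 1737 CPM in BMDC and from 830 to 1198 CPM in TolDC, those of mast cells and basophils from 222 to 348 and from 202 to 425 CPM, those of eosinophils from 83.6 to 146 and from 40.5 to 142 CPM, and those of T and NK cells from 9.46 to 28.1 and from 15.0 to 48.8 CPM. In each of these 4 lists the groups overlapped. Genes such as Mcpt8 (4.36, 29.1 and 24.2 CPM in BMDC, 10.8, 57.7 and 49.5 CPM in TolDC) were lowest in the libraries numbered 1, which widens the ranges. At each library number Mcpt8 and Ly6g were higher in TolDC, and Hdc and S100a9 lower, though none of these genes was called. Mmp8 made up 568, 573 and 578 CPM of the neutrophil sums in TolDC but only 9.99, 11.8 and 12.5 CPM in BMDC. Among the 14 neutrophil markers 2 were higher, 5 lower and 7 not called. The summed levels of 7 of the 14 marker lists did not overlap between the groups, the macrophage list among them. Each had the same exact permutation p of 0.10 and 0.20 after adjustment. Among single genes, 36.5% lay wholly higher in TolDC and 34.9% wholly lower, so such separation is not particular to the markers. Stromal and endothelial markers summed to 135 to 141 CPM in BMDC and 308 to 332 CPM in TolDC, nearly all of it Pecam1, which is also found on leukocytes (136, 131 and 128 CPM against 326, 302 and 308 CPM). Of the 3 tested stromal genes, Pecam1 and Col1a1 were higher, and Cxcl12 had no counts in the 6 libraries. B cell markers summed to 57.7 to 61.4 CPM in BMDC and 166 to 193 CPM in TolDC, of which Blnk, also a signalling adaptor of myeloid cells, made up most, while Cd79b was lower. Erythroid and platelet markers summed to 12.9 to 21.4 and 25.3 to 36.2 CPM, with Pf4 the 1 called member. Monocyte markers summed to 32389 to 32799 and 34149 to 34733 CPM, nearly all of it Chil3, and of 9 tested 2 were higher and 4 lower. Plasmacytoid dendritic cell markers summed to 352 to 397 CPM in BMDC and 276 to 294 CPM in TolDC. Most of that was Bst2 (321, 350 and 359 CPM against 233, 255 and 250 CPM), which is also in the interferon-stimulated list. In the plasmacytoid list Bst2 and Spib were lower, Tcf4 and Cox6a2 higher, and Siglech had no counts. Markers of type 1 conventional dendritic cells summed to 417 to 449 and 190.3 to 196 CPM, with 4 of 6 lower and 1 higher. The summed lists of type 2 conventional dendritic cells (1159 to 1183 and 1176 to 1192 CPM) and of osteoclasts (1304 to 1457 and 1319.8 to 1424 CPM) overlapped. Their members were not unchanged: 4 of 7 tested type 2 markers were lower and 1 higher, and 5 of 9 osteoclast markers lower and 2 higher. The part of such cells in the differences above was not tested. Without the libraries numbered 1 of every group, 4600 genes were higher and 4478 lower.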

How the data were processed

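RNA of live CD11c+ bone marrow-derived dendritic cells from C57BL6 mice was sequenced as stranded mRNA libraries, 3 for each of 4 groups. Read counts per gene were made by the authors with STAR on mm10 (GRCm38), per the submitters' processing notes, which also name cutadapt, edgeR and limma without versions. The deposited counts hold 3 columns by strand, and column 4 was used because it held at least 35.2 times the reads of column 3. In the 6 LPS libraries 79.5% to 80.2% of reads were assigned to genes, and the remaining 19.8% to 20.5% name no gene and stayed out of library sizes and tests.

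Counts were fitted with edgeR 4.0.16 (quasi-likelihood, robust, R 4.3.3) over all 12 libraries with 1 mean per group, after filterByExpr and TMM scaling (factors 0.945 to 1.04). P-values were adjusted by the Benjamini-Hochberg method over 13141 genes, and the biological coefficient of variation was 0.0572. SE was taken from the log2 difference and its F statistic. The fit was tested on simulated data, and the recovery of simulated 2-fold changes that the test of the difference with against without LPS had to reach was lowered after a first run. Gene positions come from GENCODE M21, which matched 31011 identifiers.

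Same-numbered LPS libraries deviated together (correlations 0.133 to 0.466 in 3 of 3 pairs, threshold 0.1), which meets the rule for pairing them. The main fit nevertheless has no block for the library number, so its SEs and p-values leave the pairing out, and the fit with the block is given as an alternative. The numbers 2 and 3 were not told apart, since BMDC + LPS library 3 correlated with TolDC + LPS library 2 at 0.202 and library 2 with library 3 at 0.145. Over all groups, same-numbered libraries passed that threshold in 17 of 18 pairs, the lowest at 0.091. Genes were named where they were the 12 largest rises or falls without overlap (5 CPM or more in the group with the larger mean), up to 5 called members per list, fixed by name, or among the 5 largest differences with against without LPS in each direction, leaving out predicted genes. Further list members were picked with their values in view. A few genes of the lists are not reported here. The genes and lists were chosen with earlier results of these data known. Alternatives were RLE scaling, DESeq2 1.42.0, limma-voom (limma 3.58.1), no filter, the LPS libraries alone, unstranded counts, a replicate block, a 4-fold minimum, and fits without single libraries or without those numbered 1.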

Additional observations from a re-analysis of the deposited data

Results flagged for a closer look

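For 73 named genes the TolDC minus BMDC difference with LPS differed from that without LPS by at least 1 on the log2 scale in the test of that difference (edgeR quasi-likelihood test, adjusted p below 0.05). The named genes tested numbered 223, and some were named for having the largest such differences, so the count does not measure how common they are. Over all 13141 genes the same test called 44.4% with no minimum size, and the share at this minimum was not counted. The values below are the difference with LPS minus the difference without LPS. In 45 genes the difference was more negative with LPS. Cytokines, chemokines and their receptors were Tnfsf15 (−2.44), Il12a (−3.52), Il12b (−1.68), Il1b (−1.35), Tnf (−1.13), Ccl22 (−1.27), Cx3cl1 (−2.71) and Cxcr2 (−2.4). Co-stimulation, antigen presentation and dendritic cell factors were Cd86 (−1.43), Cd80 (−1.15), Btla (−3.72), Jaml (−1.56), Flt3 (−1.98), Zbtb46 (−1.03), Irf8 (−2.47), Ciita (−1.08) and H2-Ob (−1.07). Interferon-stimulated genes were Ifi44 (−2.29), Ifit2 (−1.73) and Iigp1 (−1.61). Cell cycle and survival genes were Ccne1 (−2.03), Ccne2 (−1.63), Ccna2 (−1.77), Rrm2 (−1.94), Cenpe (−1.62), Bcl2l1 (−1.34) and Pmaip1 (−1.04). Enzymes were Ptgs2 (−5.07), Nos2 (−1.84), Kmo (−2.25), Il4i1 (−1.18) and Klk15 (−2.31). Sensors, receptors and signalling genes were Tlr11 (−4.18), Nlrp10 (−1.64), Trem1 (−1.22), Axl (−1.74), Cysltr1 (−1.64) and Dusp2 (−1.58). Other genes were Krt17 (−5.44), Igsf9 (−4.59), Igfbp4 (−4.18), Amelx (−4.17), Apol7c (−1.91), Pdgfa (−1.54) and Fam89a (−1.46).

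In 28 genes the difference was more positive with LPS. Matrix and adhesion genes were Mmp13 (5.56), Mmp8 (2.54), Ctsk (2.53), Vcam1 (2.22) and Itgam (1.44). Phagocyte and lipid genes were Gpnmb (1.41), Trem2 (1.69), Msr1 (1.59), Fabp5 (1.66), Abca1 (2.86), Ch25h (2.55) and Hexa (1.13). Enzymes of vitamin A, prostaglandin and tryptophan pathways and of glucuronidation were Aldh1a2 (4.39), Ptges (1.67), Ido1 (2.81) and Ugt1a9 (4.41). Receptors and ligands were Ccl5 (1.56), Cysltr2 (1.17), Tlr13 (1.43), C5ar1 (1.02), Clec4a3 (1.04), Clec4d (1.08), Pdgfb (1.92) and Robo4 (1.69). Other genes were Cp (1.7), Cdr2l (2.39), Iglon5 (3.96) and Msi1 (4.48).

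A more negative value does not mean a lower level with LPS: Btla and Pdgfa were higher in TolDC in both states, and the gap was smaller with LPS. Nor does a more positive value mean a higher level in TolDC. Ctsk, Vcam1, Fabp5, Abca1, Aldh1a2, Cp, Ccl5 and Clec4a3 had negative log2 differences in both states, smaller in size with LPS. Krt17, a keratin, had 0 counts in BMDC without LPS, and Klk15 and Msi1 had at most 3 counts in a group with LPS, so their values depend on the fit. In at least 1 alternative 9 of the 73 lost the call (Klk15, C5ar1, Ugt1a9, Robo4, Iglon5, Flt3, Il12b, Fam89a and Tnfsf15), and 0 reversed. The calls of Robo4, Iglon5 and Ugt1a9 were lost without BMDC library 3 without LPS, in which Cyp24a1 was at 13.1 CPM. Without TolDC library 1 without LPS, the value of Il12b was −1.26 (adjusted p = 0.189) and that of Fam89a −1.14 (adjusted p = 0.175).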

How the results depend on the processing

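Of the 217 called named genes, 0 reversed in any alternative run, and 5 lost the call in at least 1, among them Ccna2, Cd14, Ciita and Irf4. A minimum of 4-fold in place of 2-fold left 315 higher and 454 lower genes. Leaving out 1 library at a time gave 4175 to 4341 higher and 4126 to 4257 lower genes, and 815 to 948 and 1208 to 1255 of them at 2-fold. It gave 2393 to 2660 differences more positive and 2860 to 3127 more negative with LPS. With the replicate block, whose pairing sets the libraries numbered 1 apart but not 2 from 3, 4780 genes were higher and 4674 lower, and 3043 differences were more positive and 3500 more negative with LPS. With the block, Vdr and Il10 gained a call as lower, and it changed no other call of the named genes. Itgax was called higher without the libraries numbered 1 (0.06, adjusted p = 0.0466). It was among 2 uncalled named genes that gained a call in that fit, and DESeq2 gave a call to 1 uncalled named gene. DESeq2 called 4018 higher and 4387 lower, and RLE scaling called 4293 and 4596. Without the low-count filter, 1068 genes were at least 2-fold higher and 1435 lower. DESeq2 gave no adjusted p for Cyp24a1, and Il4i1 was not tested in the unstranded counts.

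The fold of 12 called genes moved by over 1.5 times in at least 1 alternative: Cdr2l, Chga, Cyp24a1, Fam110c, Fam89a, Flt3, Iglon5, Iqsec3, Klk15, Klk1b26, Msi1 and Robo4. Without BMDC + LPS library 1, Robo4 was at 8.72 and Fam110c at 7.33 on the log2 scale. Without BMDC + LPS library 2, Iglon5 was at 6.51. Without BMDC + LPS library 3, Cdr2l was at 8.79. Without TolDC + LPS library 2, Flt3 was at −4.48, and without TolDC + LPS library 3, Klk1b26 was at −6.37. The cause was not tested. Depth limits genes such as Cyp24a1 and Klk15, whose fitted folds rest on 3 counts or fewer in one group and are not bounds.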
